A study of Rattus norvegicus with 29 samples.

Results

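The comparison covered 7 of the 29 sequenced rats, the sham-operated experimental controls of 2 of the study sites: 4 rats from UEF and 3 rats from UCLA. They were the columns of the count table labelled as UEF sham and UCLA sham, and all 754 miRNAs of the table entered the test. Every rat was an adult male of the Sprague-Dawley strain, and tail vein plasma was planned for 48 h after surgery. Per the paper, the exact time was recorded at UEF but not at UCLA. A sham rat went through anesthesia and surgery like an injured rat but did not receive the lateral fluid-percussion impact that produces the traumatic brain injury (TBI). No allele, transgene or drug treatment separates the groups by their labels. The rats serve as controls of surgery, not as naive animals, so "baseline" here means a planned 48 h after a sham operation. Per the methods of the study, the sites bought rats from different vendors, fed different diets, housed the rats differently before surgery, used different analgesics (buprenorphine at UEF, flunixin meglumine at UCLA), and UCLA gave medicated chow after surgery and shipped its plasma frozen to UEF. Site and all of these cannot be told apart in the data. For reference, 3 sham rats from Monash and the injured rats (8 from UEF, 6 from UCLA; TBI without epilepsy, TBI−, and TBI with epilepsy, TBI+) are given beside some values.

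MicroRNAs are short RNAs that silence messenger RNAs through their seed, the bases at positions 2 to 8. A hairpin precursor can give a miRNA from its 5p arm and another from its 3p arm. Cells shed miRNAs into blood inside vesicles or bound to proteins, and some miRNAs are made almost wholly by 1 kind of tissue, so their plasma level is used as a sign of RNA released from it. miR-122 is the best known case, being the dominant miRNA of hepatocytes. miR-451, miR-144, miR-486 and miR-16 are abundant in red blood cells, miR-143 and miR-145 in smooth muscle of the vessel wall, miR-1 and miR-133 in striated muscle, miR-140 in cartilage, and miR-9 and miR-124 in neurons.

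The mature sequences of the miRNAs that carried the site difference are given from RefSeq (build GRCr8), with the seed in capitals. Of the 754 names, 673 matched 1 mature sequence, as did 48 of the 55 miRNAs past the threshold. The first set belongs to the hairpins that differed most in favour of UEF, with miR-101a-3p and miR-215 shown because they share a seed with a member of the set.
miR-122-5p: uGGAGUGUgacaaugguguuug
miR-122-3p: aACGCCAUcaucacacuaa
miR-3591: aACACCAUugucacacucca
miR-192-5p: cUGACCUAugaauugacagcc
miR-215: aUGACCUAugauuugacagaca
miR-192-3p: cUGCCAGUuccauaggucacag
miR-194-5p: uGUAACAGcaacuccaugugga
miR-101b-3p: uACAGUACugugauagcugaa
miR-101a-3p: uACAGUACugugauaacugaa
miR-22-3p: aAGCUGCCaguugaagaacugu
miR-378a-3p: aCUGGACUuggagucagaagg
miR-3557-5p: gCCUUCUGacuccaaguccagu
miR-143-3p: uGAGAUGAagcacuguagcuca
miR-145-3p: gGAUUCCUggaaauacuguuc
The second set, higher at UCLA, is shown because 3 of its members come from neighbouring hairpins and because miR-196a-5p has near-identical relatives in the table.
miR-503-3p: gGAGUAUUguuuccgcugccugg
miR-503-5p: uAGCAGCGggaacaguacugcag
miR-351-3p: gGUCAAGAggcgccugggaac
miR-140-3p: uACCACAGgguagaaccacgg
miR-196a-5p: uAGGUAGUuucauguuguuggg
miR-149-5p: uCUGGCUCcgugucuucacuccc

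Total miRNA counts were 2713557, 3015847, 5223469 and 2073638 in the UEF sham rats 1 to 4, and 2035581, 1470861 and 2377718 in the UCLA sham rats 1 to 3. The difference of 1295241 was not past the threshold (two-sided exact permutation p = 0.114), and with 4 rats against 3 no such test can go below 0.0571. UEF sham 3 stood apart. It had the highest total, the fewest miRNAs with 10 or more counts (658 against 721 to 737 in the 6 other rats), and a normalisation factor by the trimmed mean of M-values (TMM) of 0.333 against 0.815 to 1.43 in the others. TMM sets the scale of each library by the bulk of its miRNAs and leaves out the most extreme ones. Levels are given as normalised CPM, for which the count is divided by the library total times this factor, so with a factor below 1 the CPM of all miRNAs of a library add up to more than those of an unscaled one. Because UEF sham 3 affects the scale, the numbers of calls and part of the single results are also given without this rat. No pair of the 7 libraries was identical or agreed within counting noise, and the rank correlation of levels over all miRNAs was 0.890 to 0.932 within sites and 0.866 to 0.922 between them.

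Across all 754 miRNAs, 43 were higher at UEF and 12 were higher at UCLA at an adjusted p below 0.05, which is 7.29% of those tested (5.7% and 1.59% by direction). At an unadjusted p below 0.05 there were 151. All 55 had a log2 fold change beyond 1 in either direction, 20 of the 43 and 5 of the 12 beyond 2, while 81.3% of all miRNAs lay within 1. The ranges of normalised CPM did not overlap between the sites for 37 of the 43 and 11 of the 12, against 7.82% of all miRNAs higher at UEF and 6.63% higher at UCLA. UEF sham 3 held the highest of the 7 values for 35 of the 43 miRNAs that were higher at UEF, and for 193 of all 754. Without this rat, 21 were higher at UEF and 11 at UCLA. The split also moved with the scaling: with library totals as the only scale it was 17 against 64, with upper-quartile scaling 33 against 18, and with miR-28-3p as the scale 21 against 34. Library totals shifted the median over all miRNAs from 0.02 to −0.58 on the log2 scale. For 15 of the 43 and 2 of the 12 the call held whichever of the 7 rats was left out. Of these, 11 and 2 also held in all other alternatives, with the fit that took miR-122-5p out of the table not counted. They were miR-122-5p, miR-122-3p, miR-3591, miR-802-5p, miR-192-5p, miR-192-3p, miR-194-5p, miR-101b-3p, miR-335, miR-378b and miR-3557-5p at UEF, and miR-351-3p and miR-196a-5p at UCLA.

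**Figure D1:**
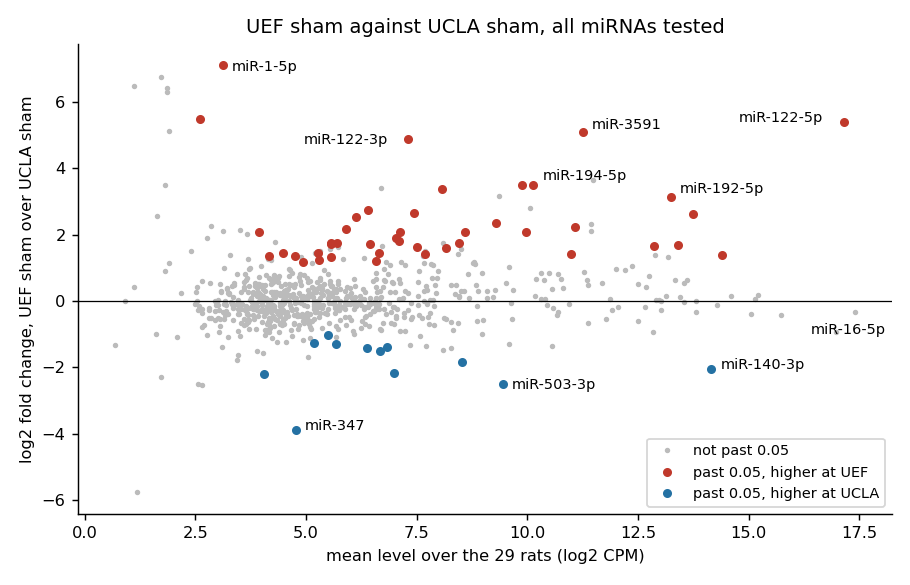
Log2 fold change of UEF sham over UCLA sham (vertical axis) against the mean level over the 29 rats (horizontal axis, log2 CPM), with 1 point for each of 754 miRNAs. The 43 miRNAs past 0.05 and higher at UEF reach from low to the highest levels, with miR-122-5p at 5.39 and above it only miR-1-5p and miR-301a-5p, which had 0 counts in each UCLA rat; the 12 higher at UCLA reach −3.89 for miR-347, and folds at the far left rest on a few counts.

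The liver miRNA miR-122-5p was the largest single component of UEF sham plasma and a minor one at UCLA. It made up 28.1%, 36.9%, 55.1% and 41.3% of the miRNA counts in the 4 UEF rats, and 1.82%, 1.76% and 2.68% in the 3 UCLA rats. The groups did not overlap, and the lowest UEF rat lay far above the highest UCLA rat. The means were 40.3% ± 11.3 (SD, n = 4) and 2.09% ± 0.511 (SD, n = 3), with a two-sided exact permutation p = 0.0571, the smallest this design can give. Without UEF sham 3 the UEF mean was 35.4% ± 6.74 (SD, n = 3). The 3 Monash sham rats lay between the sites, from 9.33% to 12.9%. Wilson 95% intervals of single shares were at most 0.134 percentage points wide, and they cover counting error only.

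**Figure D2:**
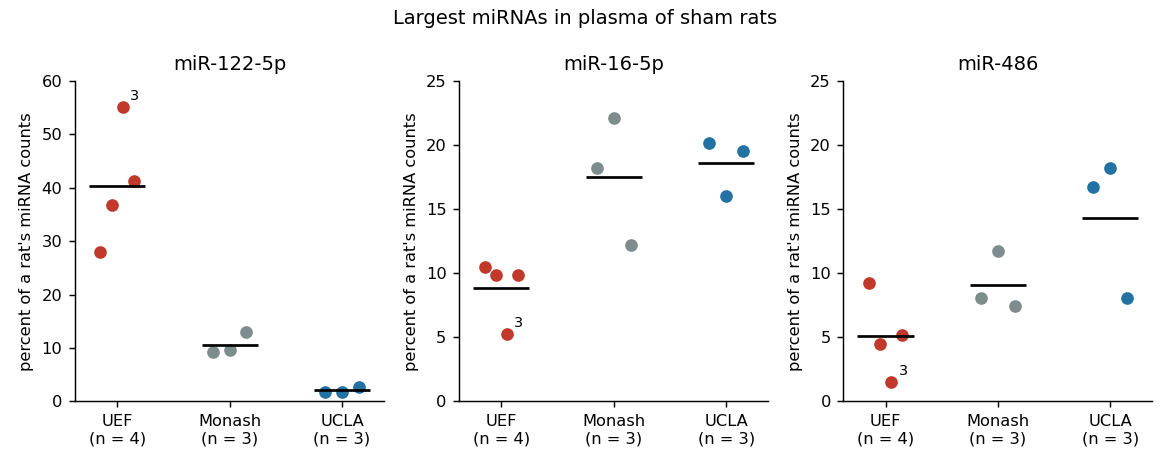
Share of each sham rat's miRNA counts (vertical axis, percent) taken by the miRNAs with the largest shares, with 1 point per rat, the mean as a bar and UEF sham 3 marked 3. miR-122-5p was 28.1% or more in every UEF rat and 2.68% or less in every UCLA rat, and miR-16-5p was 10.5% or less at UEF and 16.03% or more at UCLA.

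On the normalised scale, miR-122-5p was at 271770, 452380, 1652440 and 352030 CPM in the UEF rats and at 16027, 12320 and 20510 CPM in the UCLA rats. The log2 fold change was 5.39 (SE 0.85, adjusted p = 0.000175), and 4.43 (SE 0.73, adjusted p = 0.000519) without UEF sham 3. Its hairpin partner miR-122-3p was at 404, 507, 1518 and 309 CPM at UEF and at 16.9, 23.8 and 28.1 CPM at UCLA, a log2 fold change of 4.90 (SE 0.77, adjusted p = 0.000175). Both arms of the hairpin therefore differed, with the 3p arm about as far apart as the 5p arm. In plasma, release by more cells and more RNA released per cell cannot be told apart. Within a rat, where no scaling enters, the log2 ratio of miR-122-5p to miR-28-3p, the reference of the study's PCR assays, was 9.19, 9.48, 10.1 and 10.1 at UEF and 5.22, 5.04 and 5.72 at UCLA. The gap was thus present in each rat's own counts and as wide in UEF sham 4 as in UEF sham 3.

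miR-3591 is transcribed from the strand opposite to miR-122, and all 20 of its bases are complementary to miR-122-5p. It was at 5398, 7416, 25204 and 5975 CPM at UEF and at 322, 249.7 and 400.5 CPM at UCLA (log2 fold change 5.09, SE 0.81, adjusted p = 0.000175). Its counts followed those of miR-122-5p in a narrow ratio, log2 5.65 to 6.03 at UEF and 5.62 to 5.68 at UCLA. The sources used here do not state whether counting used strand, and without strand the reads of the pair cannot be told apart, so miR-3591 is not a separate observation of the liver.

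miR-802, a miRNA of liver and pancreas, gave a smaller difference on the same side. miR-802-5p was at 95.6, 118, 298 and 109 CPM at UEF and at 44.5, 29.01 and 29.3 CPM at UCLA, without overlap. The log2 fold change was 2.17 (SE 0.37, adjusted p = 0.000332), and 1.61 (adjusted p = 0.00426) without UEF sham 3. Its other arm, miR-802-3p, missed the threshold (1.52, SE 0.54, adjusted p = 0.0861). Of the 5 liver miRNAs, 4 were higher at UEF and 0 at UCLA, beside 5.7% and 1.59% of all miRNAs. Their median log2 fold change was 4.90, beside 0.02 over all miRNAs. This median is the value of miR-122-3p, and miR-122-5p, miR-122-3p and miR-3591 come from the same locus and are not separate observations. Without UEF sham 3 the median was 4.11, again with 4 past the threshold. Relative to the median of all miRNAs it was 4.40 with library totals and 4.35 with miR-28-3p as the scale.

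The second liver group, shared with gut and kidney, holds miR-192, miR-194 and miR-215. miR-192-5p was at 23852, 21399, 73229 and 14170 CPM at UEF and at 2727, 2891 and 5575 CPM at UCLA, a log2 fold change of 3.15 (SE 0.60, adjusted p = 0.00101). miR-194-5p, made from the hairpin next to that of miR-192, was at 2046, 3205, 11425 and 1665 CPM against 283, 293 and 651 CPM, a log2 fold change of 3.49 (SE 0.64, adjusted p = 0.000827). For both, each UEF rat lay above each UCLA rat, and the log2 fold changes without UEF sham 3 were 2.39 (adjusted p = 0.00631) and 2.47 (adjusted p = 0.00426). The 4 miRNAs of these neighbouring hairpins were all past the threshold. Among them miR-192-3p had a log2 fold change of 2.54 (SE 0.47, adjusted p = 0.00100), and miR-194-3p had 1.46 (SE 0.40, adjusted p = 0.0229). miR-194-3p lost the call without UEF sham 2, UEF sham 3 or any of the UCLA rats, with adjusted p from 0.0551 to 0.228. miR-215, which carries the same seed as miR-192-5p, was at 3841, 1842, 1604 and 1465 CPM at UEF and at 1946, 2490 and 5967 CPM at UCLA, with overlap (−0.66, SE 0.46, adjusted p = 0.469). The list of 5 thus had 4 higher at UEF and 0 at UCLA, with a median of 2.54, and 1.93 with 3 past the threshold without UEF sham 3.

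**Figure D3:**
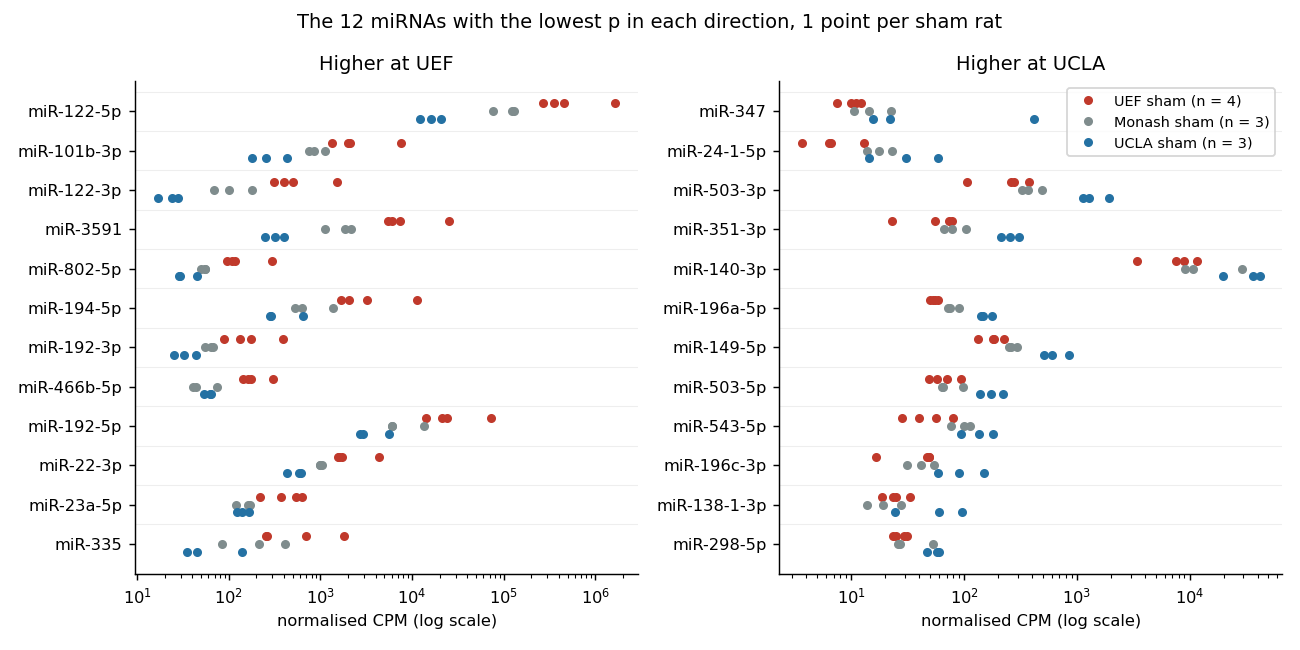
Normalised CPM (horizontal axis, log scale) of the 12 miRNAs with the lowest p in each direction, with 1 point per sham rat from UEF (n = 4), Monash (n = 3) and UCLA (n = 3). In the left panel UEF rats lie to the right of UCLA rats, and in the right panel the order is reversed, with the single UCLA rat at 419 CPM setting miR-347 apart.

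Beyond the lists, miR-101b-3p was among the miRNAs with the lowest p. It was at 1327, 2106, 7598 and 2018 CPM at UEF and at 255, 179.8 and 435 CPM at UCLA (log2 fold change 3.49, SE 0.55, adjusted p = 0.000175; 2.62, adjusted p = 0.000519, without UEF sham 3). miR-101a-3p differs from it by 1 of 21 bases and had a log2 fold change of 1.16 (adjusted p = 0.0798), so reads of the pair may be split between them. miR-22-3p, a miRNA of many tissues, was at 1713, 1607, 4319 and 1575 CPM against 587, 428 and 611 CPM (2.09, SE 0.43, adjusted p = 0.00297). miR-335, made within the imprinted gene Mest, was at 254, 704, 1798 and 262 CPM against 35.4, 44.7 and 139 CPM (3.36, SE 0.72, adjusted p = 0.00368). UEF sham 3 was again the highest, and no UEF rat fell among the UCLA rats for any of these 3 miRNAs. The remaining 2 of the 12 with the lowest p were miR-466b-5p, of a large rodent family (1.71, SE 0.32, adjusted p = 0.00101), and miR-23a-5p (1.62, SE 0.34, adjusted p = 0.00368). The 3p arm of miR-23a, the reference of the hemolysis ratio, had 0.15 (SE 0.40, adjusted p = 0.909).

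miR-378a, encoded within Ppargc1b, a gene of mitochondrial metabolism, was higher at UEF through both arms and 1 arm of its antisense relative. These miRNAs were outside the naming rule and were chosen after their values were seen. miR-378a-3p was at 2528, 2538, 7772 and 4279 CPM at UEF and at 786, 755 and 1167 CPM at UCLA (2.25, SE 0.54, adjusted p = 0.00868). This call was lost without UCLA sham 1 (adjusted p = 0.0654) or UCLA sham 2 (0.0521). miR-3557-5p, of which 21 bases are complementary to miR-378a-3p, was at 166, 152, 444 and 261 CPM against 58.8, 43.3 and 79.3 CPM (2.08, SE 0.47, adjusted p = 0.00695). As with miR-122 and miR-3591, reads of the pair cannot be told apart without strand. The other antisense arm, miR-3557-3p, has 22 bases complementary to miR-378a-5p and missed the threshold (0.46, adjusted p = 0.471). miR-378a-5p had 1.81 (adjusted p = 0.00856).

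Of the vessel wall miRNAs, both arms of miR-143 and the minor arm of miR-145 were higher at UEF, but these calls did not hold without UEF sham 3. miR-143-3p was at 10482, 30464, 91557 and 8446 CPM at UEF and at 3310, 6923 and 6824 CPM at UCLA. The UEF rats spread over more than an order of magnitude, and the lowest of them lay just above the highest UCLA rat. The log2 fold changes were 2.63 for miR-143-3p (SE 0.77, adjusted p = 0.0332), 2.67 for miR-143-5p (SE 0.65, adjusted p = 0.00952) and 2.74 for miR-145-3p (SE 0.66, adjusted p = 0.00894). Without UEF sham 3 they were 1.48 (adjusted p = 0.249), 1.73 (0.0689) and 1.80 (0.0635). Leaving out UCLA sham 1 also ended all 3 calls (adjusted p = 0.163, 0.0751 and 0.0751), and UCLA sham 2 or UCLA sham 3 ended that of miR-143-3p (0.0875 and 0.0940), the latter also that of miR-143-5p (0.0505). The abundant arm miR-145-5p was at 4068, 4983, 12225 and 1254 CPM at UEF and at 907, 1767 and 1208 CPM at UCLA, where UEF sham 4 fell among the UCLA rats, and it missed the threshold (2.12, SE 0.72, adjusted p = 0.0720). miR-126, the endothelial member of the same list, had a log2 fold change of −0.27 for both arms (adjusted p = 0.854 and 0.832). Of the 7 miRNAs of the list 3 were higher at UEF, and 0 without UEF sham 3, where the median fell from 2.12 to 1.36. With library totals as the only scale, 1 was higher at UEF and 2 at UCLA.

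Among the 12 miRNAs higher at UCLA, 3 belonged to the miR-322, miR-503 and miR-351 cluster of the X chromosome. miR-503-3p was at 260.1, 278, 380.2 and 106.8 CPM at UEF and at 1924, 1283 and 1136 CPM at UCLA (log2 fold change −2.50, SE 0.59, adjusted p = 0.00856). miR-351-3p was at 78.1, 54.9, 72.9 and 23.0 CPM against 304, 256 and 212 CPM (−2.17, SE 0.52, adjusted p = 0.00868). Each UCLA rat lay above each UEF rat for both, and without UEF sham 3 the values were −2.79 (adjusted p = 0.0140) and −2.34 (0.0183). miR-503-5p had −1.39 (SE 0.37, adjusted p = 0.0199). Without UCLA sham 1 the adjusted p were 0.0551 for miR-503-3p, 0.117 for miR-503-5p and 0.0494 for miR-351-3p. Of the 11 miRNAs of the cluster 0 were higher at UEF and 3 at UCLA, and 5 at UCLA without UEF sham 3, with a median of −0.73, and −1.25 without this rat. Members below the threshold included miR-322-5p (0.03, adjusted p = 0.981) and miR-542-3p (0.03, adjusted p = 0.971).

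The cartilage miRNA miR-140-3p was by level the largest miRNA of those higher at UCLA. It was at 7572, 8856, 11683 and 3395 CPM at UEF and at 41713, 19617 and 36191 CPM at UCLA, without overlap (−2.05, SE 0.49, adjusted p = 0.00894; −2.33, adjusted p = 0.00870, without UEF sham 3; −1.82, adjusted p = 0.0654, without UCLA sham 1). Its 5p arm had −1.29 (SE 0.45, adjusted p = 0.0758), and both arms of miR-455, which also marks chondrocytes, had −1.47 and −1.41 (adjusted p = 0.145 and 0.0970). All 4 were below 0, and 1 passed the threshold. With miR-140-3p the library's own counts gave the same order as the normalised scale: the log2 ratio to miR-28-3p was 4.02, 3.80, 3.00 and 3.44 at UEF and 6.60, 5.71 and 6.54 at UCLA. The log2 ratio of miR-122-5p to miR-140-3p was from 5.17 to 7.14 at UEF and from −1.38 to −0.67 at UCLA, without overlap, with the Monash sham rats from 2.15 to 3.74.

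miR-196a-5p, a miRNA of the Hox gene clusters, was even within each site, at 50.3, 59.0, 55.1 and 52.6 CPM at UEF and at 148, 139.8 and 177 CPM at UCLA (−1.52, SE 0.37, adjusted p = 0.00952). miR-196b-5p and miR-196c-5p share its seed and differ from it by 1 base each, and they had −1.37 (adjusted p = 0.0634) and −0.85 (adjusted p = 0.191), so the split of reads among the 3 is uncertain. miR-149-5p was at 225, 182, 133 and 183 CPM against 844, 608 and 507 CPM (−1.85, SE 0.46, adjusted p = 0.0102; adjusted p = 0.0751 without UCLA sham 1). Both had no overlap between the sites. miR-347 is a single-rat result: UCLA sham 3 was at 419 CPM, and the other 6 rats were between 7.47 and 21.9 CPM, with a log2 fold change of −3.89 (adjusted p = 0.000332) that became −0.87 (adjusted p = 0.280) without this rat. miR-24-1-5p (−2.21, adjusted p = 0.00370) lost its call without UCLA sham 1 (adjusted p = 0.0751). The other 4, miR-543-5p, miR-196c-3p, miR-138-1-3p and miR-298-5p, had log2 fold changes from −1.42 to −1.01, and each lost its call without 3 or 4 of the 7 rats in turn, UCLA sham 1 among them in each case (adjusted p = 0.136, 0.0654, 0.321 and 0.126).

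Blood cell miRNAs did not pass the threshold. miR-16-5p was at 101806, 121263, 157272 and 83781 CPM at UEF and at 177733, 112171 and 149659 CPM at UCLA, so the ranges overlapped (−0.34, SE 0.41, adjusted p = 0.745). miR-486 was at 89265, 55079, 45896 and 44188 CPM against 147367, 127549.5 and 61758 CPM (−0.94, SE 0.38, adjusted p = 0.145). Of the 7 red cell miRNAs 0 passed in either direction, with a median of −0.09, and −0.27 without UEF sham 3, and of the 6 miRNAs of white cells and platelets (miR-223, miR-142 and miR-150) 0 passed, with a median of 0.01. As a share of counts, red cell miRNAs nevertheless took 6.83% to 19.9% at UEF and 27.8% to 37.2% at UCLA, beside the 28.1% to 55.1% of miR-122-5p at UEF. With miR-122-5p left out of the totals, miR-16-5p held 14.6%, 15.7%, 11.7% and 16.8% at UEF and 20.6%, 16.3% and 20.1% at UCLA, and 1 UCLA rat then lay within the UEF range. With library totals as the only scale, 3 of the 7 red cell miRNAs were past the threshold and higher at UCLA.

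Beside the red cell miRNAs above, hemolysis was looked at in the counts by the pair of miRNAs that the study used in its PCR assay of hemolysis. For the sequenced samples, sham and injured together, the paper reports no hemolysis by that assay. It also reports plasma absorbances that did not differ between the sites, with some pooled samples slightly above its limit. The log2 ratio of the counts of miR-451-5p, a red cell miRNA, to those of miR-23a-3p was −2.81, −2.94, −3.57 and −2.90 in the UEF rats and −2.55, −2.90 and −3.32 in the UCLA rats, so that rats of both sites lay among each other. The difference of −0.133 had a two-sided exact permutation p of 0.743, and the spread between rats of a site (SD 0.347 and 0.390) was larger than the difference. miRNAs with 10 or more counts numbered 737, 721, 658 and 737 at UEF against 721, 721 and 731 at UCLA (two-sided exact permutation p = 1).

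Of the 28 brain miRNAs 0 were higher at UEF and 1, miR-138-1-3p, was higher at UCLA, with a median of 0.00 and 14 values on either side of 0. With library totals as the only scale, 3 of the 28 were past the threshold and higher at UCLA. The summed level of the list did not overlap between the sites, at 3322 to 4290 CPM at UEF and 5019 to 7879 CPM at UCLA. This sum is mostly miR-128-3p, a miRNA abundant in neurons, which held 81.2% of the counts of the list. miR-128-3p was at 3234, 3179, 3226 and 2181 CPM at UEF and at 6058, 4021 and 6863 CPM at UCLA, also without overlap, and its log2 fold change of −0.93 (SE 0.40) missed the threshold (adjusted p = 0.171). miR-9a-3p, abundant in neural progenitors and neurons, was at 91.0, 47.6, 56.9 and 88.3 CPM at UEF and at 61.4, 76.1 and 73.8 CPM at UCLA, and miR-124-3p, a neuronal miRNA, at 53.2, 29.3, 37.9 and 38.2 CPM against 28.96, 34.7 and 24.8 CPM. The ranges overlapped for both, with log2 fold changes of 0.01 (SE 0.36, adjusted p = 0.991) and 0.43 (SE 0.32, adjusted p = 0.506). Other miRNAs measured by PCR in the study also missed the threshold: miR-434-3p had −0.70 (SE 0.42), miR-183-5p 0.10 (SE 0.65), miR-323-3p 0.21 (SE 0.34), miR-132-3p −0.02 (SE 0.32), miR-212-3p −0.27 (SE 0.38), and the joined entry of miR-103-3p and miR-107-3p 0.53 (SE 0.45), with adjusted p from 0.389 to 0.981. With standard errors of 0.32 to 0.65, differences of that size were not detectable with these rats. miR-28-3p, their reference, was at 466, 635, 1462 and 312 CPM at UEF and at 429, 375 and 389.8 CPM at UCLA (0.85, SE 0.38, adjusted p = 0.202), and 0.20 (adjusted p = 0.868) without UEF sham 3.

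Striated muscle miRNAs varied widely between rats of the same site. miR-1-3p was at 375, 102, 136 and 1338 CPM at UEF and at 40.6, 47.1 and 121.6 CPM at UCLA, with UEF sham 4 highest and an overlap of the sites (2.80, SE 1.46, adjusted p = 0.287). Its minor arm miR-1-5p had 3 to 32 counts in the UEF rats and 0 in each UCLA rat, which against a floor of 3 counts over the UCLA group is at least 17.3-fold higher at UEF (adjusted p = 0.0245). The call was lost when any 1 UCLA rat was left out (adjusted p = 0.0791 to 0.100). The joined entry of miR-133a-3p and miR-133b-3p, 55.9% of the list's counts, missed the threshold (3.64, SE 1.46, adjusted p = 0.142). The summed level of the list did not overlap between the sites, at 1031 to 14095 CPM at UEF and 536 to 861 CPM at UCLA. Its share of counts overlapped, at 0.0344% to 1.65% at UEF and 0.0609% to 0.113% at UCLA. Of the 13 miRNAs of the list 1 was higher at UEF and 0 at UCLA, with a median of 0.44, and 0.57 without UEF sham 3. In injured rats 4 of the 13 were higher at UEF and 0 at UCLA, beside 6.76% and 4.51% of all miRNAs.

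**Figure D4:**
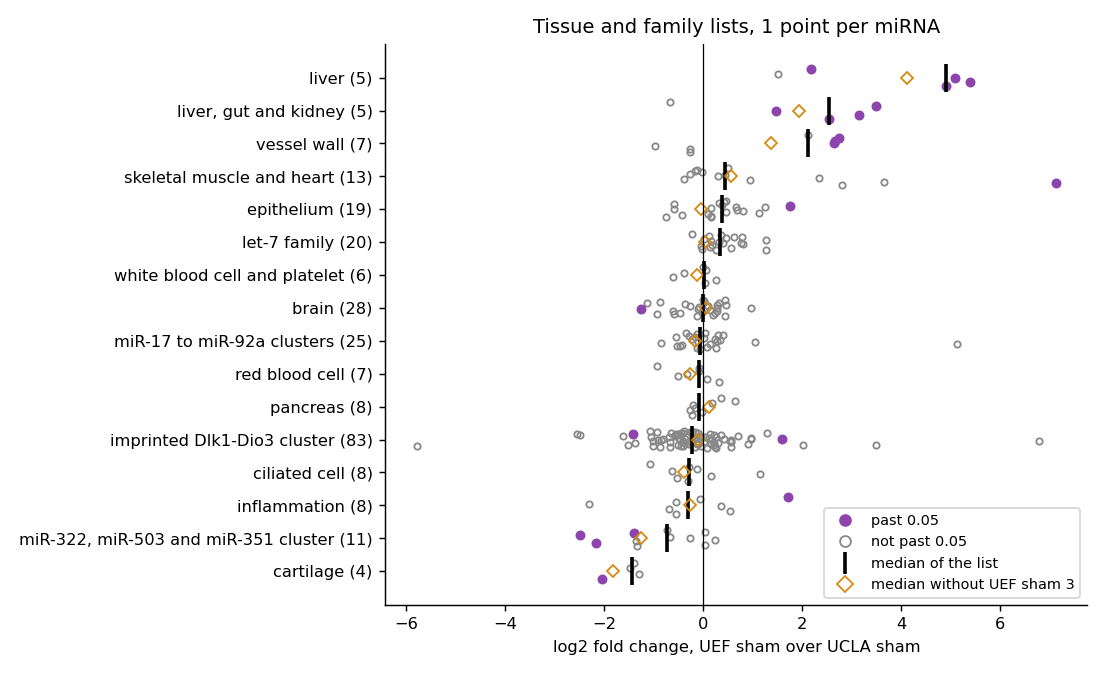
Log2 fold change of UEF sham over UCLA sham (horizontal axis) for the members of 16 tissue and family lists, with the number of members in parentheses, filled points past 0.05 and fitted folds of miRNAs without counts in a group at the far left and right. The liver list (median 4.90) and the liver, gut and kidney list (2.54) lie to the right, the cartilage list (−1.44) and the miR-322, miR-503 and miR-351 cluster (−0.73) to the left, and the medians without UEF sham 3 keep these sides.

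The other lists lay near the median of all miRNAs. The 83 miRNAs of the imprinted Dlk1-Dio3 cluster, expressed in brain, muscle and placenta, had a median of −0.23 with 1 higher at UEF, miR-411-5p (1.59, SE 0.48, adjusted p = 0.0416), and 1 higher at UCLA, miR-543-5p (−1.42, SE 0.39, adjusted p = 0.0229), and without UEF sham 3 none of them passed. The 20 let-7 miRNAs (median 0.33), the 25 of the miR-17 to miR-92a clusters (−0.06), the 8 of pancreas (−0.09) and the 8 of ciliated cells (−0.30) had 0 past the threshold. With library totals as the only scale, 4 let-7 miRNAs, 4 of the miR-17 to miR-92a clusters and 4 of Dlk1-Dio3 were higher at UCLA. Over all miRNAs 64 were, and the lists of pancreas and ciliated cells still had 0. Of 19 epithelial miRNAs 1 was higher at UEF, miR-203b-3p (1.75, SE 0.41, adjusted p = 0.00856), and of 8 inflammatory miRNAs 1, miR-21-5p, which rises in injured and fibrotic tissue. miR-21-5p was at 9106, 13361, 34316 and 9931 CPM at UEF and at 4638, 3770 and 6973 CPM at UCLA, without overlap (1.70, SE 0.43, adjusted p = 0.0113). Both calls were lost without UEF sham 3 (adjusted p = 0.0689 and 0.0686) or UCLA sham 1 (0.0751 and 0.0751), and that of miR-21-5p also without UCLA sham 2 (0.0791). That of miR-411-5p was lost without UEF sham 1, where its value was highest (adjusted p = 0.246), and without UEF sham 3 or any UCLA rat (0.102 to 0.136).

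The arms of called hairpins were mostly on the same side. In 275 hairpins with both arms in the table, 60.4% had both log2 fold changes of the same sign. Among the 37 with at least 1 arm past the threshold 83.8% did so, and in the 8 with both arms past it all 8 did. An exception was miR-101b-5p, the minor arm beside miR-101b-3p, with −0.12 (SE 0.37) and 6.48 to 19.5 CPM in the 7 rats. By position in the rat genome, called miRNAs lay within 10000 bases of each other for miR-192 and miR-194 (4 of 4 higher at UEF), miR-143 and miR-145 (3 of 4), miR-122 and miR-3591 (3 of 3), miR-22 (2 of 3 in its neighbourhood), miR-29c and miR-29b (2 of 4), and for the X-linked cluster (3 of 10 higher at UCLA). In the neighbourhood of 67 miRNAs in the Dlk1-Dio3 region the 2 calls went opposite ways, miR-411-5p being higher at UEF and miR-543-5p higher at UCLA. Over all miRNAs 5.7% were higher at UEF and 1.59% at UCLA. The calls of miR-22 and of miR-29c are the 2 arms of 1 hairpin, so their nearness was fixed in advance. The same holds for miR-503-3p and miR-503-5p among the X-linked calls, and for the 2 arms each of miR-122, miR-143, miR-192 and miR-194. It also holds for miR-3591, which lies opposite miR-122. Neighbours share a transcript in many cases and are not independent observations. Median GC content was 45.5% in the 37 miRNAs higher at UEF with a sequence, 56.5% in the 11 higher at UCLA and 47.8% over all 673, and all 3 sets had a median length of 22 bases.

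For miR-122-5p the 3 sham rats from Monash were at 76038, 128420 and 122289 CPM, above each UCLA rat and below each UEF rat. For miR-503-3p they were at 328, 372 and 495 CPM, near the UEF rats. For miR-149-5p they were at 248, 260 and 296 CPM, also near the UEF rats.

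Injured rats of the same sites were compared in the same way. They are other animals than the sham rats, but the model estimates the spread over all 29 rats, so the sham test is not free of them, and with the 7 sham rats alone it called 14 miRNAs higher at UEF and 7 higher at UCLA. In the injured, 6.76% of miRNAs were higher at UEF and 4.51% at UCLA. Of the 43 that were higher at UEF in sham rats, 12 were also past the threshold and higher at UEF in injured rats, and 37 had a value above 0. The median over all 754 miRNAs in injured rats was 0.13, so values above 0 were also the more common ones over all miRNAs. Of the 12 that were higher at UCLA, 6 were past it on the same side and 9 had a value below 0, and no miRNA was called in opposite directions. miR-122-5p had a median of 50780 CPM (24540 to 251571) in the 8 injured UEF rats and 16454 CPM (5962 to 21612) in the 6 injured UCLA rats, without overlap (log2 fold change 2.55, SE 0.52, adjusted p = 0.00170). As a share of counts, where TMM does not enter, the injured rats overlapped, at 1.58% to 22.6% at UEF and 0.634% to 2.27% at UCLA. The site difference of miR-122-5p was larger in sham rats by 2.84 on the log2 scale (SE 0.85), and this did not pass the threshold (adjusted p = 0.0892). Of the 5 liver miRNAs, 4 were higher at UEF in injured rats and 0 at UCLA, with a median of 2.04. Of the 5 of liver, gut and kidney, 0 were higher at UEF and 1 at UCLA. Their median was 0.53 in injured rats and 2.54 in sham rats. On the UCLA side the log2 fold changes in injured rats were −2.93 (SE 0.42) for miR-503-3p, −2.51 (SE 0.37) for miR-351-3p and −2.51 (SE 0.35) for miR-140-3p, each with an adjusted p of 3.1e-05. Their difference from the sham values did not pass the threshold (adjusted p = 0.782, 0.793 and 0.740).

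The test of sham against injured site differences called 10 miRNAs, 1.33% of those tested, and 8 of them were among the 55. The other 2, miR-667-3p and miR-673-3p, were higher at UEF in injured rats (1.16 and 1.24) and not called in sham rats. miR-101b-3p and miR-194-5p were the abundant ones. miR-101b-3p had 0.34 (SE 0.34) in injured rats, with medians of 593 CPM at UEF and 470 CPM at UCLA, and its site difference was larger in sham rats by 3.15 (SE 0.62, adjusted p = 0.0157), or by 2.25 (adjusted p = 0.0378) without UEF sham 3. For miR-194-5p the gap was 2.96 (SE 0.71, adjusted p = 0.0296), and without UEF sham 3 it was 1.92 (adjusted p = 0.108). Without UCLA sham 1 both missed the threshold (adjusted p = 0.0539 and 0.114). Of the 7 fits that leave out a sham rat, miR-101b-3p passed in 6 and miR-194-5p in 4. The others called in both tests were miR-466b-5p, miR-3473 and miR-3559-5p, higher at UEF in sham rats, and miR-347, miR-24-1-5p and miR-138-1-3p, higher at UCLA in sham rats. Apart from miR-347, which rests on UCLA sham 3 (adjusted p = 0.476 without it), these missed the threshold without UCLA sham 1 (adjusted p = 0.113 for miR-466b-5p, 0.114 for the others). Without UEF sham 3, miR-466b-5p, miR-3473 and miR-3559-5p missed it as well (adjusted p = 0.108).

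**Figure D5:**
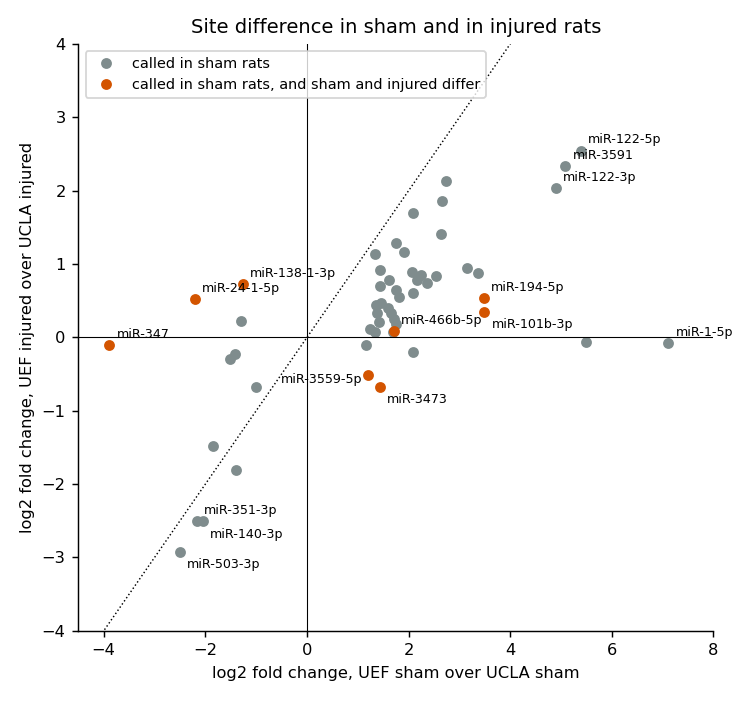
Log2 fold change of UEF over UCLA in sham rats (horizontal axis) and in injured rats (vertical axis) for the 55 miRNAs called in sham rats, with the dotted line marking equal values. miR-503-3p, miR-351-3p and miR-140-3p lie near the line, the miR-122 group below it at 2.04 to 2.55, and the 8 miRNAs whose site difference was called different between sham and injured rats are coloured.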

How the data were processed

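Plasma small RNA of 29 rats (1 library per rat) was sequenced as a service. Per the labels and methods, the authors made QIAseq miRNA libraries, used cutadapt for trimming and Bowtie for mapping to Rnor_6.0, and took names from miRBase. The deposited file gives whole-number counts of 754 miRNAs, not normalized, and whether reads of the same molecule were merged or strand was used is not given in the sources used here. Of these names 7 join several miRNAs.

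The counts were tested with edgeR 4.0.16 in R 4.3.3 (quasi-likelihood F test, filterByExpr with a minimum count of 10, which kept all 754, TMM, a mean for each site and outcome group over all 29 rats, Benjamini-Hochberg adjustment, threshold 0.05). Contrasts were UEF against UCLA in sham rats, the same in injured rats, and their difference. Log2 levels used a prior count of 2. Rat-level measures were compared by two-sided exact permutation tests (scipy 1.17.1). Lists are described by counts and medians without a test.

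The members, lists and naming rule were chosen with earlier results of these data known. Named were the 12 with the lowest p per direction, all called list members, the 3 largest shares, the study's PCR miRNAs with miR-23a-3p and miR-451, and the other arm of each. Alternatives were DESeq2 1.42.0, other scalings and filters, thinning, subsets of rats, a block of replicate numbers, and fits that leave out a rat; those without UEF sham 3 in subsets and with miR-28-3p as the scale were chosen after seeing the data. The scripts were tested on simulated counts. Sequences are RefSeq, GRCr8, with no coordinates used in the text.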

Additional observations from a re-analysis of the deposited data

Results flagged for a closer look

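By Dixon's rule, 1 of the 4 UEF rats lay apart for 2 of the 37 quantities looked at, and both times it was UEF sham 3. The rule marks about 1 in 20 by chance for any of the 4 rats, which is not the rate of a named rat. The quantities come from the same rats and are not independent, so this count does not show how unusual UEF sham 3 is. Its miR-22-3p was at 12.1 log2 CPM and its miR-196c-3p at 4.12 log2 CPM. The cause was not tested.

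The site difference was larger in sham than in injured rats by 3.15 on the log2 scale for miR-101b-3p, 2.96 for miR-194-5p, 2.11 for miR-3473, 1.72 for miR-3559-5p and 1.62 for miR-466b-5p, and it differed by −3.79 for miR-347, −2.74 for miR-24-1-5p and −1.98 for miR-138-1-3p, where sham rats were higher at UCLA. It differed by −1.62 for miR-667-3p and −1.39 for miR-673-3p, which were called in injured rats and not in sham rats. That of miR-347 rests on UCLA sham 3, that of miR-667-3p missed the threshold without UCLA sham 3 (adjusted p = 0.169), and the others missed it without UCLA sham 1.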

How the results depend on the processing

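Of 821 values of the 33 called miRNAs named by the rule under the alternatives, 658 stayed past the threshold, 163 (22 miRNAs) missed it and 0 changed sign; miR-23a-3p, not called, turned to −0.74 with library totals as the only scale. The 43 higher at UEF became 17 with library totals, 14 in the 7 sham rats alone, 26 in the 10 sham rats, and, added after seeing the data, 24 and 19 in those subsets less UEF sham 3, 17 with library totals less UEF sham 3, 21 with miR-28-3p as the scale, 19 with it less UEF sham 3 and 23 less UEF sham 3 and UCLA sham 3. The 12 higher at UCLA became 27 with DESeq2, 64 with library totals (37 less UEF sham 3), 20 with 10 counts in every rat, 7 in the 7 rats alone, and 34 and 20 with miR-28-3p with and without UEF sham 3. Leaving out 1 rat gave 17 to 56 and 3 to 19. The 51 and 34 in injured rats became 27 and 16 with a replicate block and 28 to 49 and 18 to 42 with 1 rat left out; the 10 of sham against injured became 38 with DESeq2, 16 with upper-quartile scaling, 34 with library totals and 2 to 19 with 1 rat left out. The replicate block gave 37 and 13 in sham rats, and as same-numbered rats correlated at −0.11 to 0.13 and 2 of 6 best with their own number, the numbers do not pair the rats. The exact tests keep p at or above 0.0571 by design. Depth limits the 409 miRNAs with a mean below 100 counts.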
